A study of Mus musculus with 8 samples.

Results

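MicroRNA levels in the livers of mice given carbon tetrachloride (CCl4) for 4 weeks were compared with those of untreated mice. CCl4 is a solvent that liver cells convert to a toxic radical, and repeated dosing kills hepatocytes and leads to scarring (fibrosis). The livers came from female C57B6 mice that were 4 weeks old when treatment began. The treated mice received CCl4 diluted in corn oil by intraperitoneal injection on a biweekly schedule, given in the methods of the study as 2 injections a week. The labels give the dose as 1 mg/kg and those methods as 1 ml/kg. The untreated mice are labelled as controls with no treatment, so that CCl4, the oil and the injections cannot be told apart, and their age at collection is not given in the labels. Whole liver RNA was reverse transcribed without pre-amplification and run on rodent TaqMan low-density cards, whose wells each amplify 1 small RNA and report a Ct, the PCR cycle where fluorescence reaches a set threshold. Each group has 2 cards, and groups of 1 and 8 weeks bring the series to 8 cards. The labels do not say whether the 2 cards of a group came from separate mice, so the p-values below measure only the spread between cards.

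All 179 of 381 assays with a Ct on each of the 2 untreated and 2 CCl4 cards were compared, with no further selection. They are 171 assays with mouse miRNA names, 3 with rat names and 5 control small RNAs. Values are on a log2 scale: the Ct of an assay was subtracted from its card's mean over the 168 assays determined on all 8 cards, so that 1 unit stands for a doubling if each PCR cycle doubles its product. A value therefore describes a miRNA relative to the other miRNAs of its card, and levels of different assays cannot be ranked against each other. Differences were tested with limma over all 8 cards, with Benjamini-Hochberg adjustment over the 179 assays, and are given with their standard error (SE).

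MicroRNAs are short RNAs that guide Argonaute proteins to messenger RNAs, mainly through bases 2 to 8 from their 5′ end, the seed. MicroRNAs with the same seed are grouped as a family because they can pair with the same sites. In liver, miR-122, miR-192 and miR-194 are made chiefly by hepatocytes, miR-223 and miR-142 by blood cells, miR-126 by endothelium, and miR-199a and miR-214 by stellate cells and fibroblasts. The miR-29 family targets messenger RNAs of collagens and other matrix proteins.

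Of the 179 assays, 114 were matched to a mature mouse sequence in RefSeq (build GRCm38.p6). An assay name without an arm was read as the arm to which the plain name used to belong. The sequences that the results turn on follow, with the seed in capitals. The first set includes miRNAs of hepatocytes and the miR-29 family, and all of it fell at 4 weeks except miR-29b, which did not pass the test.
miR-802: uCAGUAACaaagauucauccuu
miR-192: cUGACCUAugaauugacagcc
miR-194: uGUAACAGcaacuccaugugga
miR-203: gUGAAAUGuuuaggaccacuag
miR-101a: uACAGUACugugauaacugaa
miR-107: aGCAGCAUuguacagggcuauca
miR-126-3p: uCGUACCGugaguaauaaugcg
miR-29a: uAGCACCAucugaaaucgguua
miR-29b: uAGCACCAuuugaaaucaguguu
miR-29c: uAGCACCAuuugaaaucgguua
miR-26a: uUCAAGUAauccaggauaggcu
miR-26b: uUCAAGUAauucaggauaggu
miR-30c: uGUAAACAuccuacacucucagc
miR-30e: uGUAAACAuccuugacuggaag
The second set rose, and includes 5 of the 10 miRNAs tested on the list of white blood cells, among them both arms of miR-142.
miR-223: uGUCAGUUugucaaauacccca
miR-142-3p: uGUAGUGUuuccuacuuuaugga
miR-142-5p: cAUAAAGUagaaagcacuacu
miR-342-3p: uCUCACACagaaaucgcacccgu
miR-132: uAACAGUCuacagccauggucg
miR-34a: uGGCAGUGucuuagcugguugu
miR-34b-3p: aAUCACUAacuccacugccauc
miR-214: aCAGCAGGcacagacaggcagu
miR-181c: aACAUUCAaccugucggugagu
miR-409-3p: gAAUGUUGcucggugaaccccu
miR-410: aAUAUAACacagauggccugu
miR-450a-5p: uUUUGCGAuguguuccuaauau
The third set holds miRNAs from groups with a shared seed whose members did not all pass in the same direction. Differences between members were not tested.
miR-193: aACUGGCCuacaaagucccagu
miR-193b: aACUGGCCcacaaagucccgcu
miR-16: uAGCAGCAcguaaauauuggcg
miR-15b: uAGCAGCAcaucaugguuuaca
miR-497: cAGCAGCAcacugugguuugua
miR-215: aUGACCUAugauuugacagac
miR-103: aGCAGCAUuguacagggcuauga
miR-27a: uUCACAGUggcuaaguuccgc
miR-27b: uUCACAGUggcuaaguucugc
let-7c: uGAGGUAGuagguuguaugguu
let-7f: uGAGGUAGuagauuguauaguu
Bases 2 to 8 are the same in miR-193 and miR-193b, which differ at 3 of 22 positions. They are also the same in miR-16, miR-15b and miR-497, in miR-192 and miR-215, in miR-103 and miR-107, which differ at 1 of 23 positions, and in miR-27a and miR-27b, which differ at 1 of 21. How far the assay of one such miRNA also detects the other was not tested.

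After 4 weeks of CCl4, 50 of 179 assays (27.9%) differed from untreated liver at an adjusted p of 0.05, with 22 higher (12.3%) and 28 lower (15.6%). The median change over all 179 was 0.05 on the log2 scale, with 91 above 0 and 88 below. The lowest change was that of miR-802, at -3.32, and the highest that of rno-miR-224, an assay designed for the rat miRNA, at 3.63. Among the miRNAs that fell were 8 of 9 on the hepatocyte list, 2 of 3 members of the miR-29 family and both arms of miR-126. Among those that rose were 5 of 10 leukocyte miRNAs and both miR-34 assays tested.

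The cards of the 2 groups did not overlap for 117 assays (65.4%), 57 higher and 60 lower at 4 weeks, and all 50 changed assays were among them. The smallest change that passed was 1.05 in size (miR-26a), and the largest that did not was that of miR-331-5p, at 2.99 with an SE of 1.78. miR-331-5p read -3.38 and -9.17 on the untreated cards and -4.26 and -2.32 on the 4-week cards, so that the groups overlapped, and its fit lacked 1 card of 1 week. Leaving out 1 of the 4 cards gave it a change from 0.10 to 5.89, and it passed without untreated card 1 (adjusted p = 0.0312). The 4-week cards differed in signal. Over the centring assays their mean Ct was 28.8 and 30.4, against 29.0 and 28.6 for the untreated cards, and card 2 had 193 determined assays where card 1 had 235. Without 4-week card 2 the count was 29, and without untreated card 1 or 2 it was 25 or 22. Without 4-week card 1 it was 44. The direction was kept by all 50 in each of these 4 fits, and 15 passed in all 4. These 15 were miR-802, miR-192, miR-107, miR-203, miR-194, rno-miR-345-3p, miR-29c, the small nucleolar RNA U87, miR-30c and miR-185 among the decreases, and miR-685, miR-409-3p, miR-223, miR-132 and miR-142-3p among the increases. The scale matters for the split: with 3 control RNAs (U6, snoRNA135 and snoRNA202) as the reference, 47 were higher and 10 lower, with no centring 2 were higher and 11 lower, and over the 134 assays with a mean Ct below 32 the split was 16 and 33. Those references moved the median of all assays to 0.73 and -0.76 for the first 2, so changes here are relative to the other miRNAs of the card. Quantile normalization ended 16 of the 50 calls and control RNAs as the reference 18. Both ended those of miR-29a, miR-126-3p, miR-126-5p, miR-26a, miR-26b, miR-30b, miR-30c, miR-16, miR-31 and U6, whose outcome under quantile normalization was fixed in advance. Control RNAs also ended those of miR-101a, miR-148a, miR-365, miR-185, miR-152, miR-27b, let-7f and let-7g, and quantile normalization those of miR-142-5p, miR-181c, miR-184, miR-193b, miR-410 and miR-741. Centring on all determined assays of a card ended 19, those of miR-16, miR-26a, miR-26b, miR-27b, miR-29a, miR-30b, miR-31, miR-152 and let-7f among the decreases and of miR-34a, miR-142-5p, miR-184, miR-193b, miR-214, miR-324-5p, miR-342-3p, miR-410, miR-497 and miR-741 among the increases. No centring ended 39, and the 11 left were miR-802, miR-192, miR-107, miR-203, miR-194, miR-193, miR-101a, rno-miR-345-3p, miR-29c, miR-685 and rno-miR-224. With undetermined wells at Ct 40, 10 were lost, those of miR-16, miR-126-5p, U6, miR-193b, miR-410, miR-497, miR-324-5p, miR-339-5p, miR-296-5p and rno-miR-224. A fit to the 4 cards alone called 37, 18 higher and 19 lower, and ended 13 calls, those of miR-16, miR-26a, miR-26b, miR-27b, miR-29a, miR-30b, miR-31, miR-152, let-7f, miR-193b, miR-296-5p, miR-410 and miR-741.

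**Figure D1:**
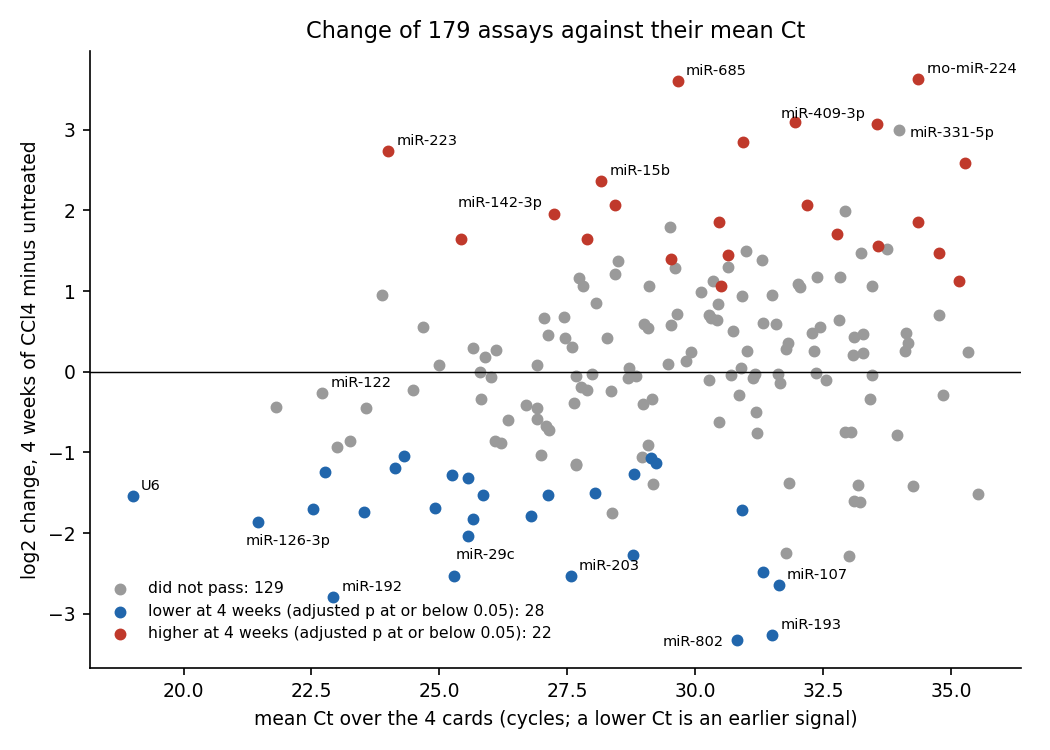
The log2 change of each of the 179 assays, 4 weeks of CCl4 minus untreated, is plotted against its mean Ct in cycles over the 4 cards. The 28 decreases in blue lie mostly at early Ct, with a median of 25.8 cycles, and the 22 increases in red at later Ct, with a median of 30.8 cycles, against 29.6 for all assays.

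The plot of change against mean Ct shows that the direction went with signal. Of the 30 assays with a mean Ct below 26, 15 were lower and 2 higher, with a median change of -0.99. Of the 45 with a mean Ct of 32 or more, 9 were higher and 0 lower, with a median of 0.48. Each 4-week card showed this taken alone: relative to the untreated mean, the medians of these 2 ranges were -0.92 and 0.47 on card 1 and -1.08 and 0.82 on card 2. The part that signal strength has in the changes below was not tested.

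**Figure D2:**
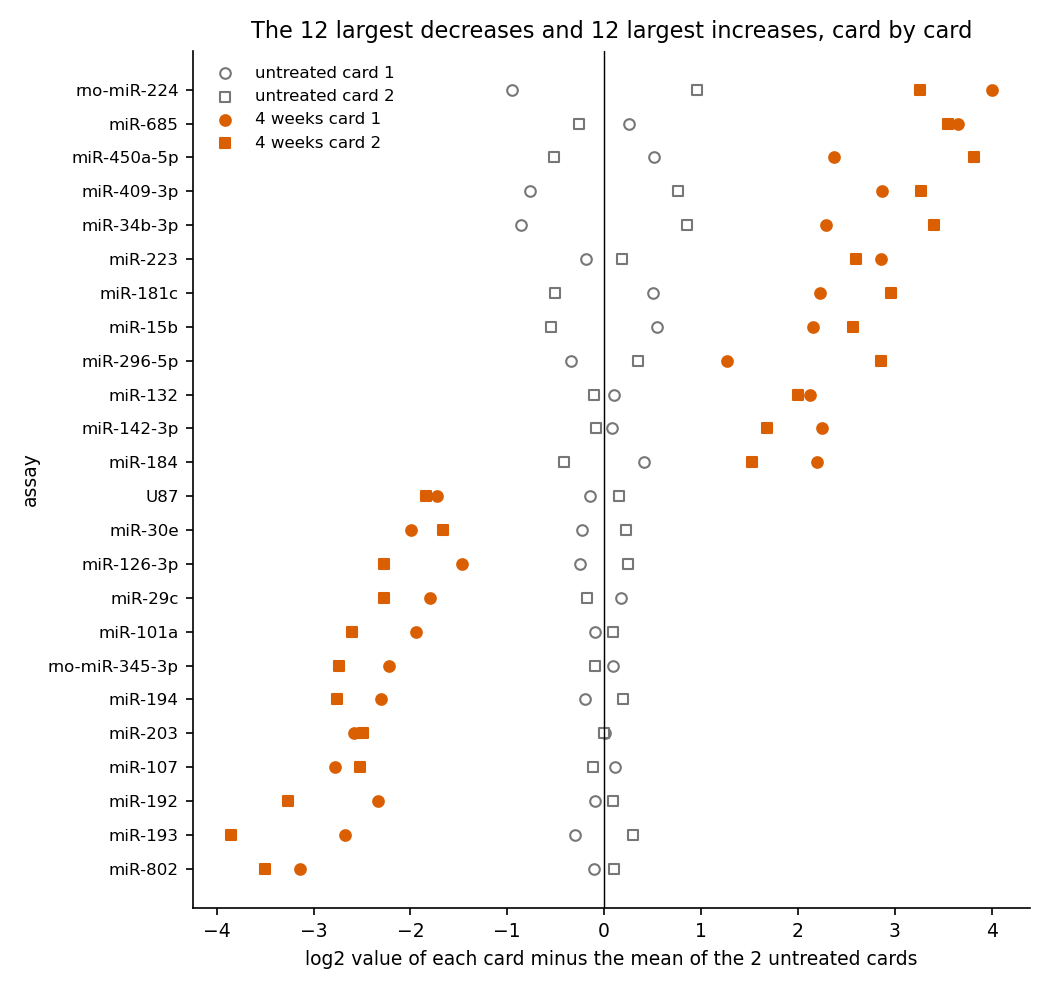
Each row is 1 of the 12 largest decreases or increases among changed assays, and each point the log2 value of 1 card minus the mean of the untreated cards. Open grey points are the untreated cards and filled orange points the 4-week cards, and in all 24 rows both orange points lie outside the grey ones. This follows from the choice of rows, as all 50 changed assays lacked overlap. Over all 179 assays, 117 (65.4%) did.

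All tested assays of the hepatocyte list were lower at 4 weeks, with the exception of miR-122. Of 9 tested on this list, 8 were lower, against 15.6% of all assays, 0 were higher and miR-122 did not pass, with a median change of -2.53, against 0.05 over all assays. The lists here and below were chosen with earlier results of these data known, so their shares carry no test. miR-802, a liver miRNA linked to glucose metabolism, read -0.06 and 0.14 on the untreated cards and -3.11 and -3.47 on the 4-week cards. It fell to 0.0999 of its untreated level, a change of -3.32 (SE 0.29, adjusted p = 0.00131). miR-192 read 7.59 and 7.77 in untreated liver and 5.34 and 4.41 after CCl4, 6.96 times lower (-2.80, SE 0.39, adjusted p = 0.00665). miR-194, which is transcribed with miR-192 from one of its 2 loci, read 4.99 and 5.38 against 2.88 and 2.42, a change of -2.53 (SE 0.34, adjusted p = 0.00629). In each of the 3 the 2 groups of cards were more than 1 unit apart. Their mean Ct was 30.8 for miR-802, but 22.9 for miR-192 and 25.3 for miR-194. Of the 30 assays with a mean Ct below 26, 15 were lower.

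miR-203, which is also abundant in skin, gave the tightest values of the list. It read 2.91 and 2.90 on the untreated cards and 0.32 and 0.41 on the 4-week cards, 5.79 times lower (-2.53, SE 0.27, adjusted p = 0.00264). miR-193 read -0.96 and -0.37 and then -3.35 and -4.52, a change of -3.26 (SE 0.57, adjusted p = 0.00755). The other members that fell were miR-101a (-2.27), miR-148a (-1.53) and miR-365 (-1.50). Calls were lost for miR-101a without either untreated card or 4-week card 2 (adjusted p of 0.0636, 0.0784 and 0.0783), for miR-193 without untreated card 2 (0.0504), and for miR-148a and miR-365 without untreated card 1 (0.0518 and 0.0636).

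miR-122, the most abundant miRNA of the hepatocyte, read 7.05 and 6.21 on the untreated cards and 6.03 and 6.68 on the 4-week cards. The groups overlapped, and the difference of -0.27 (SE 0.51, adjusted p = 0.717) turned to 0.78 with quantile normalization, 0.41 with control RNAs as reference, 0.15 without untreated card 1 and 0.06 without 4-week card 1. Differences between assays on the same card do not depend on the reference. The value of miR-192 minus that of miR-122 was 0.54 and 1.56 on the untreated cards and -0.69 and -2.27 on the 4-week cards. For miR-802 minus miR-122 it was -7.11 and -6.07 in untreated liver and -9.14 and -10.15 at 4 weeks. In whole liver RNA, fewer cells of a type and less RNA per cell cannot be told apart.

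The miR-29 family was lower at 4 weeks in 2 of 3 members, against 15.6% of all assays, with a median of -1.25. The median was -0.81 with quantile normalization, -0.57 with control RNAs as reference and -2.055 with no centring. miR-29a and miR-29c had a mean Ct of 22.8 and 25.6, and miR-29b of 31.2. Of the 30 assays with a mean Ct below 26, 15 were lower. miR-29c read 4.84 and 4.49 on the untreated cards and 2.86 and 2.39 on the 4-week cards, a fall to 0.244 of untreated (-2.03, SE 0.33, adjusted p = 0.00746). miR-29a read 7.30 and 6.82 and then 5.79 and 5.82, 0.421 of untreated (-1.25, SE 0.29, adjusted p = 0.0160). miR-29b read -1.56 and -1.70 and then -2.36 and -2.44. Its cards did not overlap either, but its change of -0.76 did not pass (SE 0.48, adjusted p = 0.261). The value of miR-29c relative to miR-29a on the same card went from -2.46 and -2.33 to -2.93 and -3.43. The call for miR-29c held in all 4 fits that left out a card, while that for miR-29a was lost without untreated card 1, 4-week card 1 or 4-week card 2 (adjusted p of 0.0949, 0.0503 and 0.0688). With quantile normalization miR-29a was at -0.43 (adjusted p = 0.306) and with control RNAs as reference at -0.57 (adjusted p = 0.264).

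Members of other families also fell. miR-26a, miR-26b, miR-30c and miR-30e had a mean Ct of 24.3, 25.6, 23.5 and 25.7, and miR-101a of 28.8. Of the 30 assays with a mean Ct below 26, 15 were lower. miR-26a, miR-26b and miR-101a, 3 of 3 tested on a list of miRNAs that target the histone methyltransferase Ezh2, were lower, against 15.6% of all assays. miR-26b read 4.35 and 4.24 against 3.20 and 2.73 at 4 weeks, a change of -1.32 (SE 0.30, adjusted p = 0.0144), and miR-26a fell by 1.05 (adjusted p = 0.0222). Of 5 members of the miR-30 family, 3 were lower, against 15.6% of all assays, with a median of -1.19 over the 5. That median was -0.72 with quantile normalization, -0.51 with control RNAs as reference and -2.0 with no centring. miR-30e read 4.22 and 4.68 and then 2.45 and 2.78 (-1.83, SE 0.35, adjusted p = 0.0120). miR-30c read 6.51 and 6.56 and then 4.88 and 4.71 (-1.73, SE 0.26, adjusted p = 0.00699). miR-30b fell by 1.19 (adjusted p = 0.0144), while miR-30a at -0.86 and miR-30d at -0.67 did not pass (adjusted p of 0.0685 and 0.114), and miR-30d turned to 0.01 with control RNAs as reference. The calls for miR-26a were lost without any 1 card (adjusted p from 0.0649 to 0.0949), those for miR-26b and miR-30b without either untreated card or 4-week card 2 (0.0641 to 0.0783), and that for miR-30e without untreated card 2 (0.0728).

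Both arms of miR-126, a miRNA of endothelial cells from an intron of Egfl7, fell, against 15.6% of all assays. miR-126-3p had a mean Ct of 21.5, and of the 30 assays with a mean Ct below 26, 15 were lower. miR-126-3p read 8.43 and 8.92 on the untreated cards and 7.20 and 6.40 on the 4-week cards (-1.87, SE 0.41, adjusted p = 0.0144). miR-126-5p read 5.11 and 5.15 against 3.72 and 3.15 (-1.69, SE 0.45, adjusted p = 0.0302). The 3p arm kept its distance from the 5p arm, at 3.32 and 3.77 above it on the untreated cards and 3.48 and 3.25 on the 4-week cards. Of the biliary and epithelial list, 1 of 9 was lower, against 15.6% of all assays, and 0 were higher, with a median of -0.34. The median was -0.70 without untreated card 1, -0.84 with a mean Ct below 32, -1.15 with no centring and 0.34 with control RNAs as reference. The assay that fell was miR-31, which read 4.46 and 4.74 against 3.19 and 3.44 (-1.28, SE 0.28, adjusted p = 0.0144), while miR-183 at 1.53 (SE 0.68, adjusted p = 0.135) did not pass. Without untreated card 1 miR-183 was at 2.51 and passed, but without 4-week card 2 it was at 1.17 and did not. Its lowest value over the alternative settings was 0.55. With control RNAs as reference miR-183 passed (2.21, adjusted p = 0.0430). Neither erythroid assay passed, and miR-451 changed by 0.51 (SE 0.41, adjusted p = 0.375). Without untreated card 2 or 4-week card 2 the adjusted p of miR-126-3p was 0.0818 or 0.0735. With quantile normalization the 3p arm was at -0.70 (adjusted p = 0.344) and the 5p arm at -1.09 (adjusted p = 0.0843), and with control RNAs as reference they were at -1.19 (adjusted p = 0.0794) and -1.01 (adjusted p = 0.148). The calls for miR-126-5p and miR-31 were lost in 3 of the 4 fits that left out a card, with a highest adjusted p of 0.138 for miR-126-5p, without 4-week card 2, and 0.0818 for miR-31, without untreated card 2; the other cards were both untreated cards for miR-126-5p, and untreated card 1 and 4-week card 1 for miR-31.

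MicroRNAs of white blood cells were higher at 4 weeks where they passed. Of 10 tested on this list, 5 were higher, against 12.3% of all assays, and 0 lower, with a median of 1.36. With no centring the median was 0.55 and none of these 5 passed. miR-223, a miRNA of neutrophils and macrophages, read 3.65 and 4.02 on the untreated cards and 6.69 and 6.43 on the 4-week cards. It rose 6.64-fold (2.73, SE 0.31, adjusted p = 0.00264) and passed in all 4 fits that left out a card. Relative to miR-122 on the same card, miR-223 moved from -3.40 and -2.19 to 0.66 and -0.25.

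Both arms of miR-142, which is expressed across blood cells, rose. miR-142-3p read 1.07 and 0.91 and then 3.23 and 2.66 (1.96, SE 0.32, adjusted p = 0.00746). miR-142-5p read -4.97 and -5.34 and then -3.59 and -3.62 (1.56, SE 0.30, adjusted p = 0.0120). miR-132, which is also made by neurons and activated myeloid cells, read -0.17 and -0.37 against 1.85 and 1.72, a 4.18-fold rise (2.06, SE 0.30, adjusted p = 0.00699). miR-342-3p rose by 1.65 (SE 0.36, adjusted p = 0.0144). The members that did not pass included miR-155 at 0.99 (adjusted p = 0.0591), miR-146b at 1.16 (adjusted p = 0.112) and miR-21, which is also induced in many cell types in injury, at 0.56 (adjusted p = 0.262). Without untreated card 2 the adjusted p of miR-142-5p was 0.0728, and without untreated card 1 or 4-week card 1 that of miR-342-3p was 0.0871 or 0.0552. miR-146b passed without 4-week card 2 (1.80, adjusted p = 0.0459). miR-21 was at 1.25 with quantile normalization (adjusted p = 0.0110) and at 1.24 with control RNAs as reference (adjusted p = 0.0442), and passed in both, while with no centring it was at -0.25. miR-155 and miR-146b also passed with control RNAs as reference (1.67 and 1.84, adjusted p of 0.0164 and 0.0356), and miR-155 over the assays with a mean Ct below 32 (adjusted p = 0.0386).

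The list of mesenchymal miRNAs, those of stellate cells, fibroblasts and smooth muscle, had 1 member that passed. Of 9 tested, 1 was higher, against 12.3% of all assays, and 0 lower, with a median of -0.05, and 6 of the 9 lay below 0. The median was 0.17 without untreated card 2 and 0.63 with control RNAs as reference. It was -0.33 with quantile normalization and -0.855 with no centring. miR-214 was the one that rose, from 0.68 and 0.30 to 1.89 and 2.37 (1.65, SE 0.37, adjusted p = 0.0144). miR-199a-3p, whose second gene lies next to that of miR-214, read 1.04 and 0.71 and then 2.26 and 1.59 (1.06, SE 0.35, adjusted p = 0.0612). Its cards did not overlap, but the test was not passed. It passed with control RNAs as reference (1.74, adjusted p = 0.0257), over the assays with a mean Ct below 32 (adjusted p = 0.0400) and with a variance trend (adjusted p = 0.0309). The smooth muscle miRNAs miR-143 and miR-145 changed by -0.38 and 0.29 (adjusted p of 0.321 and 0.605), and the muscle miRNA miR-133a by -1.62 with an SE of 1.51. Over the alternative settings the change of miR-133a ran from -3.13 to -0.10. miR-143 turned to 0.30 with control RNAs as reference, and miR-145 to -0.52 with no centring and -0.14 without 4-week card 2. Without either untreated card or 4-week card 2 the adjusted p of miR-214 was 0.0518, 0.0835 or 0.0783.

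**Figure D3:**
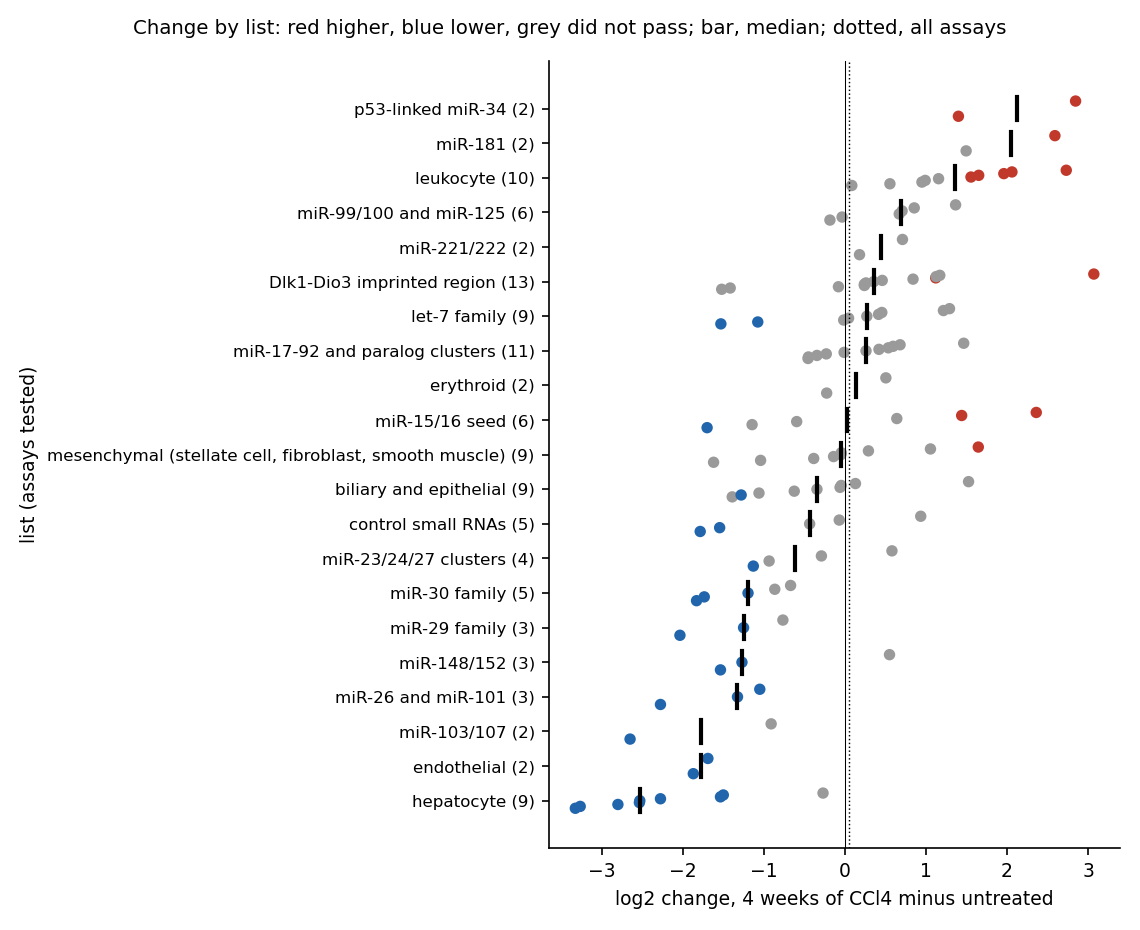
Each point is the log2 change of 1 assay, 4 weeks of CCl4 minus untreated, grouped by list with the number tested in brackets; red points passed as higher, blue points as lower and grey points did not pass. Black bars are the medians, from -2.53 for the hepatocyte list to 2.12 for the miR-34 list, and the dotted line is the median of all 179 assays at 0.05.

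Of 3 assays on the card for miR-34 family members, which p53 activates, 2 were determined on all 4 cards, and both rose, against 12.3% of all assays. miR-34a read -0.97 and -1.10 on the untreated cards and 0.31 and 0.41 on the 4-week cards (1.40, SE 0.31, adjusted p = 0.0144). miR-34b-3p read -4.02 and -2.31 and then -0.88 and 0.23 (2.85, SE 0.63, adjusted p = 0.0144). The values of miR-34a were close within each group and those of miR-34b-3p were not. Both calls were lost without untreated card 1 (adjusted p of 0.0624 and 0.0636) and 4-week card 2 (0.0704 and 0.0783), and that of miR-34a also without untreated card 2 (0.0784). miR-34a was also not called with centring on all determined assays (adjusted p = 0.113) or the card median (0.0818), nor with no centring (0.763), where miR-34b-3p was not called either (0.127).

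Several of the largest increases belonged to none of the lists of liver cells. miR-685 read -2.0 and -2.51 on the untreated cards and 1.39 and 1.29 on the 4-week cards, a 12.1-fold rise (3.60, SE 0.61, adjusted p = 0.00753). rno-miR-224 read -7.93 and -6.02 and then -2.98 and -3.72 (3.63, SE 0.72, adjusted p = 0.0144), in a fit that lacked 1 card of 1 week, and its call was lost with undetermined wells at Ct 40 (adjusted p = 0.33). miR-450a-5p, from a cluster on the X chromosome with miR-322, read -3.78 and -4.82 and then -1.93 and -0.49 (3.10, SE 0.61, adjusted p = 0.0126), while miR-322 changed by 0.64 (adjusted p = 0.247). miR-296-5p and miR-184 rose by 2.07 (SE 0.56, adjusted p = 0.0309) and 1.86 (SE 0.39, adjusted p = 0.0144). Leaving out 1 of the 4 cards gave miR-296-5p a change from 1.27 to 2.86. miR-339-5p rose by 1.85, miR-324-5p by 1.70 and miR-741 by 1.47. The fit of miR-741 lacked both cards of 1 week. The untreated cards were apart by 1.91 for rno-miR-224 and by 1.04 for miR-450a-5p, and by 0.51 for miR-685. Calls were lost in at least 1 fit that left out a card for each of these apart from miR-685: rno-miR-224 without untreated card 1 or 4-week card 1 (highest adjusted p 0.0526), miR-450a-5p without untreated card 2 or 4-week card 2 (0.0728), miR-184 without untreated card 2 or 4-week card 1 (0.0784), miR-296-5p and miR-339-5p without either untreated card or 4-week card 2 (0.142 and 0.112), and miR-324-5p and miR-741 without any 1 card (0.183 and 0.148).

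The Dlk1-Dio3 region is an imprinted locus with a large array of miRNAs that are active in the embryo and low in adult liver. Of 44 of its assays on the card, 13 were determined on all 4 cards, and 2 of them were higher, against 12.3% of all assays, and 0 lower, with a median of 0.36. The median was 0.87 without untreated card 2, 0.90 with undetermined wells at Ct 40, 1.04 with control RNAs as reference and -0.45 with no centring. miR-409-3p read -6.65 and -5.12 on the untreated cards and -3.02 and -2.62 on the 4-week cards, an 8.41-fold rise (3.07, SE 0.50, adjusted p = 0.00746). Leaving out 1 of the 4 cards gave it a change from 2.31 to 3.84. miR-410, whose gene lies within 10000 bases of that of miR-409, rose by 1.12 (SE 0.33, adjusted p = 0.0428) from -6.76 and -6.29 to -5.24 and -5.58. miR-127 at 1.17 (adjusted p = 0.0777) and miR-337-3p at -1.52 (adjusted p = 0.112) did not pass. With quantile normalization miR-337-3p passed as lower (-2.30, adjusted p = 0.0213). With control RNAs as reference miR-127 passed as higher (1.85, adjusted p = 0.0174). The call for miR-410 was lost without any 1 card (adjusted p from 0.0783 to 0.188) and that for miR-409-3p in none of these fits.

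**Figure D4:**
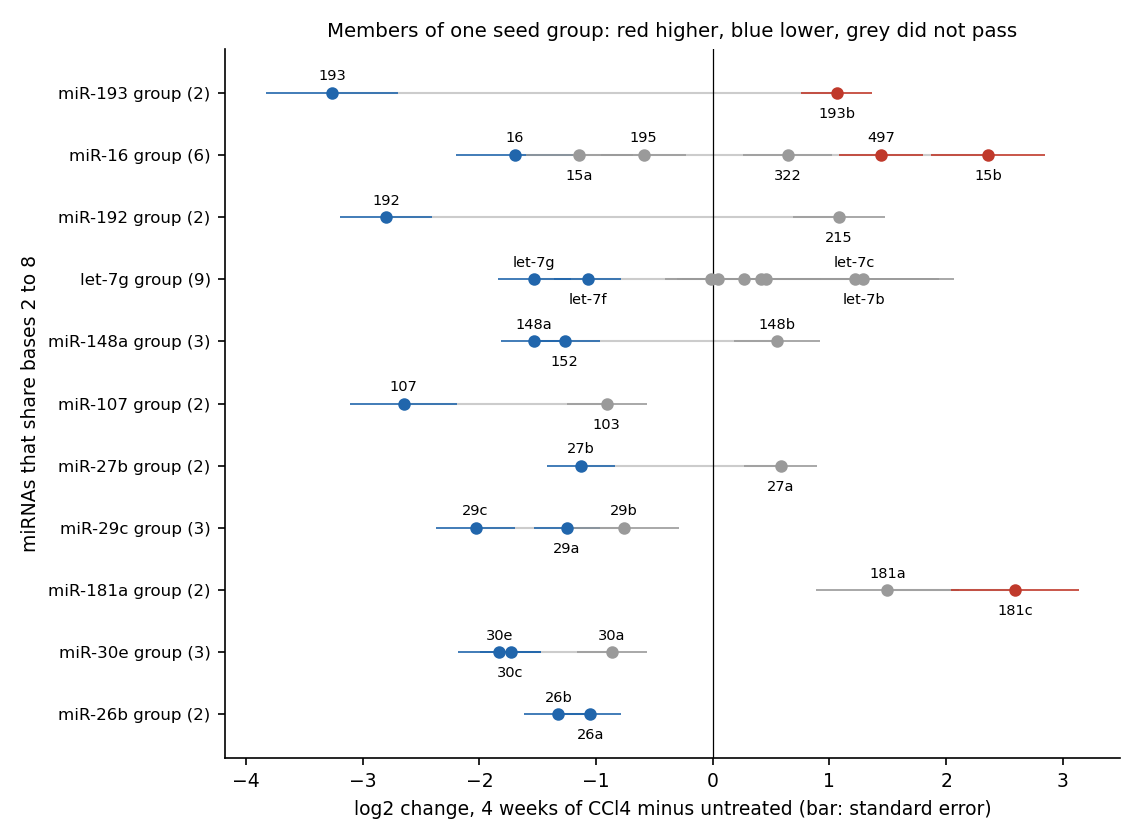
Each row is a group of miRNAs that share bases 2 to 8, and each point the log2 change of 1 member with its standard error, red if higher, blue if lower and grey if it did not pass. The row of miR-193 spans 4.32 units, from -3.26 to 1.06, and that of miR-26b spans 0.27.

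Among the 114 assays with a sequence, 66 fell into 22 groups that share a seed, and 11 of these groups had a changed member. In 2 groups members were called in opposite directions, and in 1 group, miR-26a and miR-26b, every member was called the same way. miR-193 fell by 3.26 while miR-193b, its relative from another chromosome, rose by 1.06 (SE 0.31, adjusted p = 0.0401). On the same card, the value of miR-193b minus that of miR-193 was -0.67 and -1.68 in untreated liver and 2.37 and 3.93 at 4 weeks, a shift of 4.32 that no reference enters. miR-365, which has 2 genes, 1 of them next to that of miR-193b, fell by 1.50. The call for miR-193b was lost without any 1 card, with an adjusted p from 0.0503 to 0.202.

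In the group of miR-16, 1 of 6 was lower, against 15.6% of all assays, and 2 were higher, against 12.3%. miR-16 read 7.05 and 7.98 on the untreated cards and 6.16 and 5.46 on the 4-week cards (-1.70, SE 0.50, adjusted p = 0.0412). miR-15b read 0.40 and -0.69 and then 2.00 and 2.42 (2.36, SE 0.49, adjusted p = 0.0142), although one of the 2 genes of miR-16 lies beside that of miR-15b. miR-497 rose by 1.44 (SE 0.36, adjusted p = 0.0229), and miR-195, the neighbour of miR-497, changed by -0.59 (adjusted p = 0.249). miR-15a, the neighbour of the other miR-16 gene, changed by -1.14 (adjusted p = 0.106). It passed without 4-week card 1, at -1.75, but was at -0.54 without 4-week card 2 and did not pass there. The value of miR-15b minus that of miR-16 was -6.65 and -8.67 in untreated liver and -4.16 and -3.04 at 4 weeks, and these pairs of cards did not overlap. miR-195 turned to 0.09 with control RNAs as reference. The calls were lost without any 1 card for miR-16 (adjusted p from 0.0503 to 0.222), without untreated card 2 or 4-week card 2 for miR-15b (0.0728 and 0.0688), and also without untreated card 1 for miR-497 (0.0624, with 0.127 and 0.107 without the other 2).

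Smaller gaps were seen within other groups. miR-215 changed by 1.08 without passing (SE 0.40, adjusted p = 0.0845) while miR-192 fell, and the value of miR-215 minus that of miR-192 went from -10.85 and -11.19 on the untreated cards to -7.12 and -7.16 on the 4-week cards. miR-107, from an intron of a pantothenate kinase gene, read -0.99 and -1.22 and then -3.89 and -3.63 (-2.65, SE 0.46, adjusted p = 0.00755), and miR-103 changed by -0.91 (SE 0.34, adjusted p = 0.0897). miR-27b fell by 1.13 (adjusted p = 0.0276) and miR-27a changed by 0.58 (adjusted p = 0.198). miR-148a and miR-152 fell by 1.53 and 1.27 (adjusted p of 0.00962 and 0.0203) and miR-148b changed by 0.55 (adjusted p = 0.293). miR-27a and miR-148b went to -0.22 and -0.26 with no centring. miR-181c rose by 2.59 (SE 0.55, adjusted p = 0.0144) and miR-181a changed by 1.50 (SE 0.62, adjusted p = 0.112). With control RNAs as reference miR-148b passed at 1.23 (adjusted p = 0.0368), miR-181a at 2.18 (adjusted p = 0.0288) and miR-215 at 1.76 (adjusted p = 0.0281). With quantile normalization miR-103 passed at -1.03 (adjusted p = 0.0446). miR-215 passed without 4-week card 2 (1.57, adjusted p = 0.0459). The calls for miR-27b and miR-152 were lost without any 1 card (highest adjusted p 0.127 and 0.0996) and that for miR-181c without untreated card 2 or 4-week card 2 (0.0784 and 0.0710).

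The let-7 family had 9 members on all 4 cards, of which 2 fell, against 15.6% of all assays, and 7 did not pass, with a median of 0.27. The median was 0.73 without untreated card 1 and -0.07 without untreated card 2. let-7g read 4.29 and 3.94 and then 2.76 and 2.40 (-1.53, SE 0.31, adjusted p = 0.0141). let-7f fell by 1.07 (SE 0.29, adjusted p = 0.0299). let-7b and let-7c changed by 1.29 and 1.22, but their untreated cards lay 1.27 and 1.79 apart and neither passed (adjusted p = 0.247 for both). Of 11 assays of the miR-17-92 cluster and its paralogs, which are linked to cell division, 0 passed, with a median of 0.26 that went to -0.35 without 4-week card 1, and miR-18a had the largest change at 1.47 (SE 0.47, adjusted p = 0.0591). Neither miR-221, at 0.71, nor miR-222 passed, nor did any of the 6 assays of the miR-99/100 and miR-125 list, among them miR-99b at 1.37 (adjusted p = 0.0749). Of the 4 assays of the miR-23/24/27 clusters 1 passed (miR-27b), against 27.9% of all assays, and miR-24 changed by -0.93 (adjusted p = 0.0606). miR-221 went to -0.10 with no centring and passed at 1.39 with control RNAs as reference (adjusted p = 0.0490). That reference also gave passes for miR-99b (2.05, adjusted p = 0.0203) and miR-18a (2.15, adjusted p = 0.0138). Over the assays with a mean Ct below 32 miR-99b and miR-24 passed (adjusted p of 0.0499 and 0.0400). Both also passed with a variance trend (adjusted p of 0.0456 and 0.0243). With control RNAs as reference the medians of the let-7 and miR-17-92 lists were 0.95 and 0.94, and with no centring -0.54 and -0.55. The call for let-7f was lost without any 1 card (adjusted p from 0.0503 to 0.127) and that for let-7g without untreated card 1 or 4-week card 2 (0.0667 and 0.0685).

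The small RNAs that the card carries as controls were not level. U6 is a spliceosomal RNA often used as a reference. It read 10.58 and 11.36 on the untreated cards and 9.36 and 9.48 on the 4-week cards (-1.54, SE 0.45, adjusted p = 0.0401). Leaving out 1 of the 4 cards gave it a change from -1.93 to -1.15, and it was then not called. With quantile normalization its change was 0.00, which was fixed in advance. U6 had the lowest Ct on each of the 4 cards, and that method gives the lowest Ct of every card the same value. The small nucleolar RNA U87 fell by 1.78 (SE 0.30, adjusted p = 0.00753). Changes of -0.43 for snoRNA202, -0.07 for snoRNA135 and 0.94 for Y1 did not pass, and those of snoRNA202 and snoRNA135 turned to 0.70 and 0.59 with quantile normalization and to 0.25 and 0.61 with control RNAs as reference. As snoRNA202, snoRNA135 and U6 make up that reference, their values against it show only changes relative to each other. Y1 went from 0.12 without 4-week card 2 to 1.75 without 4-week card 1, where it passed (adjusted p = 0.0440), and it passed at 1.62 with control RNAs as reference (adjusted p = 0.0459). The assay for a plant miRNA gave a Ct on 0 of the 8 cards.

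The remaining decreases were those of rno-miR-345-3p and miR-185. rno-miR-345-3p read -0.79 and -0.97 and then -3.11 and -3.62 (-2.48, SE 0.38, adjusted p = 0.00699), and miR-185 read -0.65 and -1.05 and then -2.53 and -2.61 (-1.71, SE 0.28, adjusted p = 0.00746). Their groups were well apart on all cards.

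Detection was compared for assays outside the 179. Of the 381, 126 gave no Ct on any of the 4 cards. miR-543 was determined on both 4-week cards, at a Ct of 35.96 and 32.54, and on neither untreated card. rno-miR-190b, miR-345-3p and rno-miR-743b were determined on both untreated cards, at a Ct between 33.66 and 37.03, and on neither 4-week card. A further 19 assays had a Ct on the other 3 cards and none on 4-week card 2, the card with the latest signals, against 6, 3 and 1 for untreated cards 1 and 2 and 4-week card 1. At such late Ct an undetermined well does not show that the miRNA is absent.

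The 4-week livers were next set against those of 1 week of CCl4. As the mice were 4 weeks old when treatment began, groups of different duration also differed in age at collection. Age and duration cannot be told apart in these comparisons. Of 177 assays, 77 differed (43.5%), with 39 higher and 38 lower at 4 weeks, and the count was 25 without 4-week card 2, and 22 or 32 without card 1 or 2 of 1 week. Of the 28 decreases against untreated, 14 were also lower at 4 weeks than at 1 week. They included miR-802 (-1.46, adjusted p = 0.0110), miR-192 (-2.07, adjusted p = 0.0101), miR-203 (-2.66, adjusted p = 0.00202) and both arms of miR-126 (-2.36 and -1.66, adjusted p of 0.00889 and 0.0261). Of the increases, 8 were higher at 4 weeks than at 1 week, among them miR-685 (4.30, adjusted p = 0.00437) and miR-142-3p (2.31, adjusted p = 0.00437), and 3 were lower, namely miR-409-3p, miR-410 and miR-193b. Both comparisons use the same 4-week cards, on which these assays were chosen, so the counts of 14, 8 and 3 carry no test. miR-29c and miR-29a did not differ detectably between these times (-0.69 and -0.45, adjusted p of 0.129 and 0.228), and miR-29b was 1.88 higher at 4 weeks (adjusted p = 0.0234).

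The lists are set here against the 43.5% of all assays that differed between 1 and 4 weeks, with no test by list. Of the 9 let-7 assays, 7 were higher at 4 weeks than at 1 week and 0 were lower, with a median of 1.73. let-7c was 3.41 higher (adjusted p = 0.0132) and let-7b 3.24 higher (adjusted p = 0.0187). Of 13 assays of the Dlk1-Dio3 region, 8 were lower and 2 higher at 4 weeks. miR-409-3p stood 6.0 above untreated at 1 week, 3.07 at 4 weeks and 3.59 at 8 weeks, and miR-410 stood 4.47, 1.12 and 1.79 above. The hepatocyte list had 6 of 9 lower and 0 higher at 4 weeks.

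**Figure D5:**
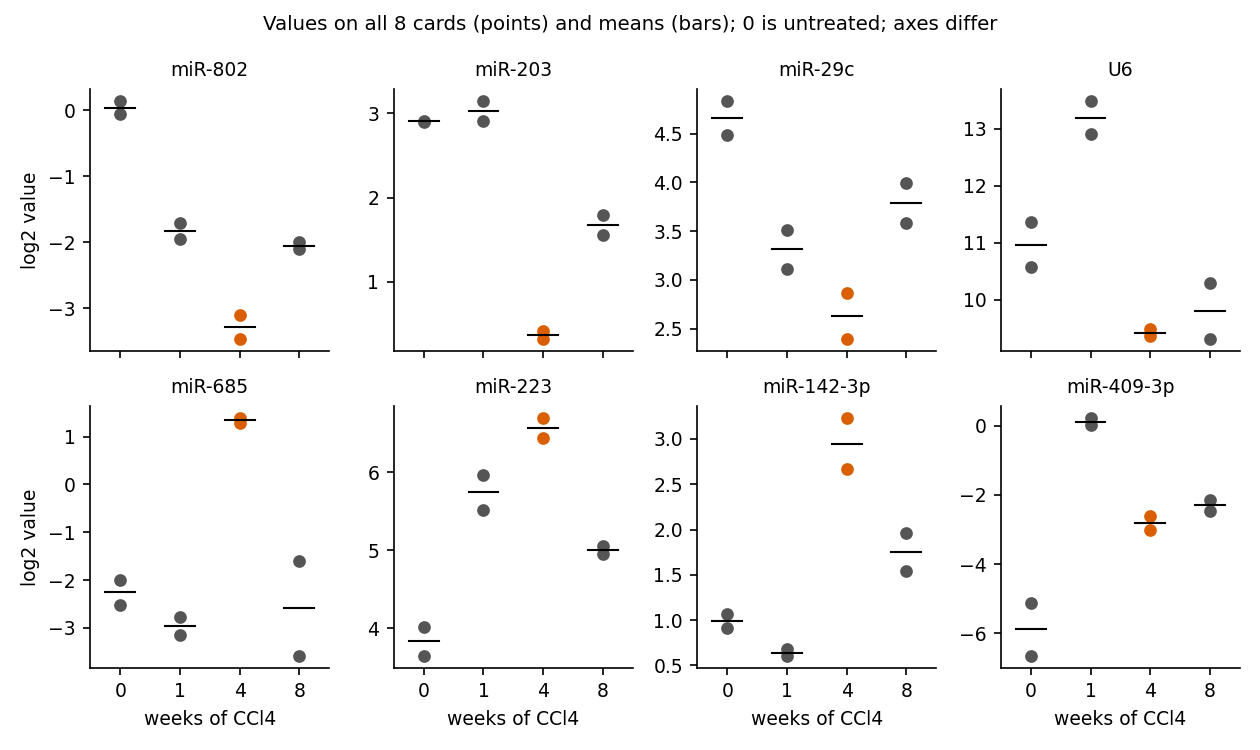
Log2 values of 8 assays on all 8 cards, with untreated liver at 0 weeks, points for cards, bars for group means and the 4-week cards in orange; the vertical axes differ. miR-802, miR-203 and miR-29c have their lowest cards at 4 weeks, miR-685, miR-223 and miR-142-3p their highest, and miR-409-3p its highest at 1 week.

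Against 8 weeks of CCl4 limma called 0 of 179 assays (0%), with 27 at an unadjusted p of 0.05. The lowest adjusted p was 0.0566, for miR-685, which was 3.94 higher at 4 weeks and whose 8-week cards read -3.59 and -1.60. Without 8-week card 2 it was the 1 assay called (4.93, adjusted p = 0.00234). miR-223 was 1.56 higher and miR-203 1.30 lower at 4 weeks (adjusted p of 0.0835 and 0.0843). The group means of all 28 decreases were lower at 4 weeks than at 8 weeks, and those of 17 of the 22 increases were higher, where 86 of all 179 assays had a lower mean at 4 weeks. The 28 and 22 were chosen on their 4-week values, so these counts carry no test. As the plot of values by week shows, the group means of miR-29c relative to untreated were -1.35, -2.03 and -0.87 at 1, 4 and 8 weeks.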

How the data were processed

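The authors deposited raw Ct values of each rodent TaqMan microRNA card (pool A), with no normalization and empty cells for undetermined wells; the software that set the threshold is not given in the sources used here. Total RNA was isolated with a mirVana kit. A second deposited table, of the authors' fold changes against untreated made with DataAssist, was not used. Groups and replicate numbers were taken from the labels. Assays needed a Ct on all 4 cards, and the mean Ct over 168 assays determined on all 8 cards was used for centring. Each of the 179 assays was fitted by least squares to its determined cards of all 4 groups, with limma 3.58.1 in R 4.3.3 for moderated variances (prior df 3.05), and adjusted by Benjamini-Hochberg. An exact test of 2 cards against 2 cannot go below p = 0.333. For 11 assays 1 or 2 cards of 1 or 8 weeks were missing. In simulated cards the procedure called 66.8% of assays changed by 2 on the log2 scale, 23.5% of those changed by 1 and 0.468% of unchanged ones. These cards had independent noise in each assay, and 40 of 179 assays changed, in equal numbers up and down. They held no faint card, no deviations shared between cards and no tie of change to Ct. The rates need not hold for the real cards. Assays named are the 12 largest changes in each direction, the miR-29 family, miR-122, controls, changed members and examples from 21 lists, assays determined in 1 group only, and 18 chosen after their values were seen, of which 7 lie outside the lists' rule (miR-185, miR-193b, miR-215, miR-324-5p, miR-331-5p, miR-339-5p and miR-741) and 11 are further examples from lists (let-7c, miR-21, miR-27a, miR-30d, miR-127, miR-143, miR-145, miR-155, miR-195, miR-199a-3p and miR-322). The comparison and the lists were chosen with earlier results of these data known. Alternatives were other centrings, Ct limits, undetermined wells at Ct 40, fewer cards, a replicate block and a variance trend.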

Additional observations from a re-analysis of the deposited data

Results flagged for a closer look

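Values at 4 weeks and at 1 week of CCl4 differed for 77 assays by limma's test of the difference, at an adjusted p of 0.05 or less. The mice of these groups also differed in age at collection, which cannot be told apart from duration. The named assays among the 77 are given here as the log2 value at 4 weeks minus that at 1 week. With values below 0, so lower at 4 weeks, were miR-133a (-5.17), U6 (-3.77), miR-410 (-3.35), miR-409-3p (-2.93), miR-203 (-2.66), miR-146b (-2.43) and miR-337-3p (-2.41). Less far below 1 week were miR-16 (-2.38), miR-126-3p (-2.36), miR-193 (-2.31), miR-192 (-2.07), miR-31 (-2.03), miR-30e (-1.88), miR-126-5p (-1.66), miR-194 (-1.59), miR-101a (-1.56), miR-802 (-1.46), miR-24 (-1.38), miR-193b (-1.32), miR-30c (-1.28) and miR-185 (-0.97). The values of miR-133a on the 1-week cards were themselves far apart, at -1.62 and 2.29. With values above 0 were miR-685 (4.30), miR-324-5p (3.53), let-7c (3.41), let-7b (3.24), miR-183 (2.53), Y1 (2.36), miR-181a (2.34), miR-142-3p (2.31) and miR-339-5p (2.21). Smaller differences above 0 were those of miR-296-5p (2.16), miR-29b (1.88), miR-99b (1.81), miR-15b (1.60), miR-451 (1.51), miR-215 (1.47), miR-497 (1.19), miR-221 (1.17), snoRNA202 (1.11) and miR-214 (1.10). Without 4-week card 2 the count of 77 was 25, without card 1 or 2 of 1 week it was 22 or 32, and what sets the 2 times apart was not tested.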

How the results depend on the processing

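Results against untreated were recomputed under up to 18 alternatives and the counts against 1 and 8 weeks under 20. All 50 changes against untreated kept their direction under every alternative that tested them, except U6, which was 0.00 with quantile normalization. For U6 that value was fixed in advance, as it had the lowest Ct on each of the 4 cards compared. The calls of 8 held under all of these: miR-802, miR-192, miR-107, miR-203, miR-194, rno-miR-345-3p, miR-29c and miR-685. The count of 50 became 33 with centring on all determined assays and 13 with no centring. It ranged from 22 to 44 when 1 untreated or 4-week card was left out, and the count of 77 against 1 week from 22 to 69 when 1 untreated, 1-week or 4-week card was. The count of 77 became 29 with no centring and 35 with undetermined wells at Ct 40. The count of 0 against 8 weeks went from 0 to 1 when 1 untreated, 4-week or 8-week card was left out, with 1 called (miR-685) without 8-week card 2 alone. It became 1 with centring on all determined assays, on the card median or on control RNAs, 7 with quantile normalization, 3 with a mean Ct below 32 or a variance trend, and 2 with assays determined on all 8 cards only. The causes were not tested.

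Of the named assays that had not passed, 14 passed with control RNAs as reference, 5 with a mean Ct below 32, 4 with a variance trend and 3 with quantile normalization. Signs turned in assays that had not passed. With quantile normalization miR-24 was 0.00, snoRNA202 0.70, miR-122 0.78 and snoRNA135 0.59. With control RNAs as reference snoRNA202 was 0.25, miR-122 0.41, snoRNA135 0.61, miR-30d 0.013, miR-195 0.088 and miR-143 0.30. Both snoRNAs are part of that reference. With no centring miR-145 was -0.52, miR-451 -0.30, miR-148b -0.26, miR-21 -0.25, miR-27a -0.22, miR-322 -0.16 and miR-221 -0.10. Leaving out 1 card gave miR-122 from -0.69 to 0.15, snoRNA135 from -0.31 to 0.18 and miR-145 from -0.14 to 0.72.

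With the replicate number as a block 46 assays differed from untreated, 69 from 1 week and 0 from 8 weeks. The numbers do not pair the cards by any statement in the labels, and deviations of same-numbered untreated and 4-week cards correlated at -0.37 over 168 assays. With the numbers of the untreated cards exchanged, a pairing chosen after seeing the data, the counts were 63, 93 and 4. The depth of signal limits what can be seen: 4-week card 2 was the faintest of the 8 cards, and 45 of the 179 assays had a mean Ct of 32 or more.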
